A study of Mus musculus with 6 samples.

Results

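The endothelial genes of the E12.5 maxillary process were compared between 3 WT samples and 3 wnt1cre; Rosa26Dlx2/- (Dlx2OE) samples by bulk RNA-seq. Endothelial cells line the blood vessels. The 38 names on the list were matched by gene symbol to the 53801 genes of the count files, and 37 were found. All 37 passed the filter on low counts, which kept 17514 genes. The name without a match, Robo4-none, is not a gene symbol, and Robo4 itself was measured among other endothelial genes described further on. The list was drawn up from known endothelial genes, and the question was whether their RNA fell uniformly in Dlx2OE or changed gene by gene.

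All embryos were labelled C57BL/6, and the knock-in was made in C57BL/6J mice. The WT samples were labelled wild type. In Dlx2OE, a Flag-tagged Dlx2 cassette in the Rosa26 locus, kept off the CAG promoter by a stop sequence between loxP sites, was released by Cre under the Wnt1 promoter, which is active in neural crest. Endothelium comes mainly from mesoderm, in which this Cre is not active. The RNA was extracted from whole maxillary processes of littermates, and a sample may hold more than 1 embryo. Nothing states that the 3 samples of a genotype came from separate litters, so that p-values measure the spread between these samples alone. Levels are given as CPM, counts scaled to a common library total by the TMM method. Dlx2, the targeted gene, was at 124 ± 5.96 CPM in the Dlx2OE samples, against 41.0 ± 5.32 in WT (SD over 3 samples). Its log2 fold change was 1.60 (edgeR quasi-likelihood test, Benjamini-Hochberg adjusted p = 0.00241). These reads do not separate the cassette from the endogenous gene.

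The libraries held 26155500 to 31308813 counts on genes. Dlx2OE replicate 3 stood apart in that 14.7% of its reads lay outside annotated genes, against 5.03% to 7.81% in the other samples. Haemoglobin genes took 0.333% to 0.403% of the counts in WT and 0.201% to 0.258% in Dlx2OE. Defining endothelial markers were present in every sample, with Cdh5 between 62.1 and 112 CPM and Pecam1 between 45.3 and 94.2 CPM.

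Vessels of the face form from mesodermal precursors that coalesce into a plexus and are then remodelled. VEGF from the surrounding tissue acts on receptors of the endothelial cell, angiopoietins act on the Tie receptors, and the cells are held together by vascular endothelial cadherin and claudin. Transcription factors of the ETS and SOXF families keep the endothelial programme active, and many endothelial promoters and enhancers carry sites for ETS factors. In bulk tissue, fewer endothelial cells and less of these RNAs per cell cannot be told apart.

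Most endothelial genes had slightly lower RNA levels in Dlx2OE, and few differences passed the test. The log2 fold change was below 0 for 34 of the 37 genes, where 49.7% of all tested genes were below 0. The exceptions were Ets1, Sox18 and Esm1. The median was -0.36, a level 22.2% lower in Dlx2OE, beside 0.0028 over all genes. At an adjusted p under 0.05 (edgeR quasi-likelihood test, Benjamini-Hochberg adjustment over all tested genes), Emcn and Ramp2 fell, 2 of 37 genes, while 3.46% of all genes fell at that threshold. Esm1 rose, 1 of 37 genes, against 2.99% of all genes. By this test, the share of endothelial genes that passed was near that of all genes. With a log2 fold change beyond 1 also required, 0 endothelial genes fell (1.62% of all genes), and Esm1 still rose (1.5% of all genes). At an unadjusted p under 0.05 from the same edgeR test, 11 endothelial genes were lower (15.4% of all genes) and 2 were higher (14.1%).

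The size of the shift depended on which samples were included, among them the first replicate of each genotype. Measured against the WT mean, the median endothelial gene stood at 115%, 81.9% and 106% in WT replicates 1, 2 and 3. It stood at 63.8%, 90.5% and 82.0% in Dlx2OE replicates 1, 2 and 3. WT replicate 2 thus lay within the range of the Dlx2OE samples. Dlx2OE replicate 1 was the lowest of the 6 samples for 27 of the 37 genes, as it was for 17.6% of all genes. WT replicate 1 was the highest for 21 of the 37, against 20.2% of all genes. In Dlx2OE replicate 1, 29 of the 37 genes lay below all WT samples, compared with 11 in Dlx2OE replicate 2 and 14 in Dlx2OE replicate 3. Among all genes these shares were 33.4%, 32.6% and 35% in Dlx2OE replicates 1, 2 and 3. The median log2 fold change was -0.23 without Dlx2OE replicate 1, -0.27 without WT replicate 1 and -0.50 without WT replicate 2. Without replicate 1 of both genotypes, a comparison chosen after the data were seen, it was -0.10, with 26 genes below 0 and 11 above. In that comparison 1 gene fell by the edgeR test (5.06% of all genes) and 0 rose (4.05%). Without WT replicate 1 alone, 0 fell (0.567% of all genes) and 0 rose (0.424%), and without Dlx2OE replicate 1 alone, 2 fell (5.33%) and 1 rose (5.36%). The summed level of all endothelial genes was 1194.5, 867.0 and 1066 CPM in WT and 709 CPM, 945 CPM and 869.5 CPM in Dlx2OE replicates 1 to 3.

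**Figure D1:**
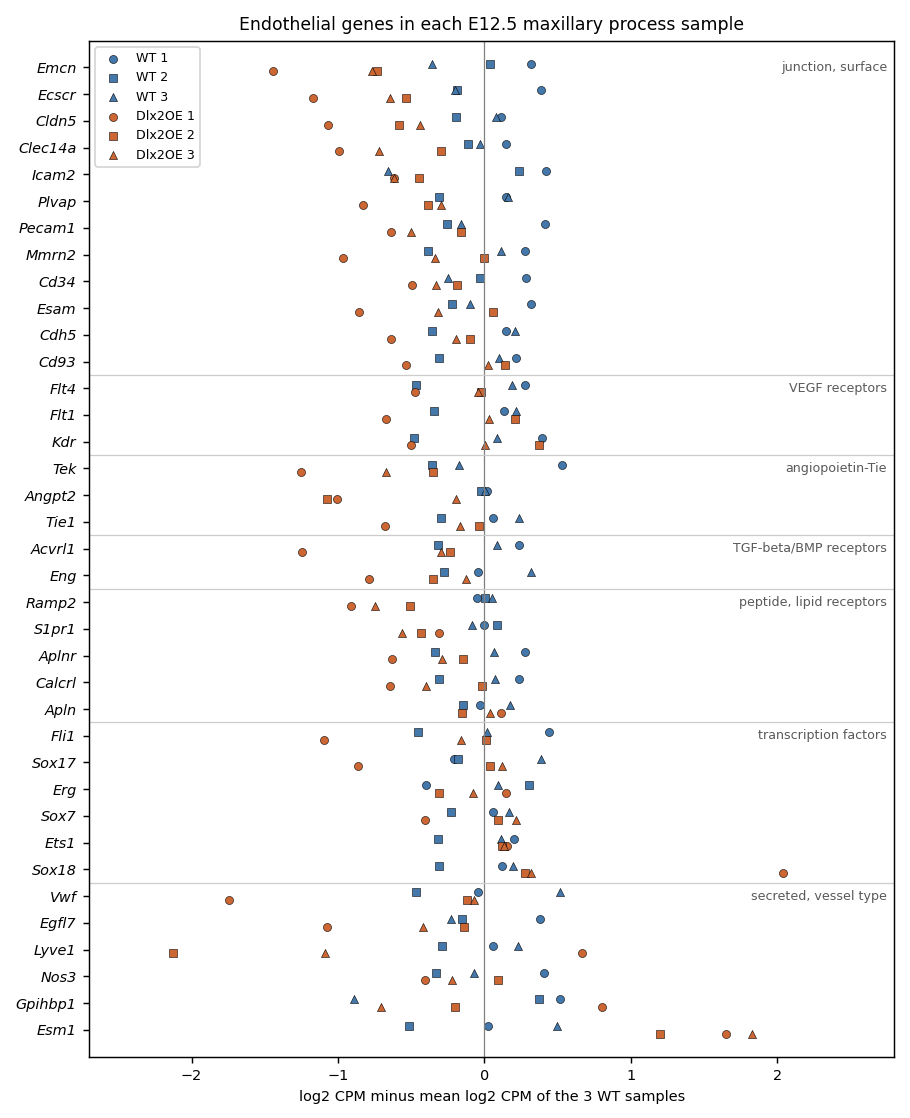
Each point is 1 sample's log2 CPM minus the mean of the 3 WT samples for 1 endothelial gene, with WT in blue, Dlx2OE in orange, the marker shape giving the replicate and the genes grouped by role. Dlx2OE replicate 1 (orange circles) is the lowest of 6 samples for 27 of the 37 genes, and its Sox18 value lies far to the right.

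Promoter sequences are given for the genes that mark the range of behaviour, as the 250 bases before the start site in RefSeq on GRCm38.p6, each read on the strand of its gene. Emcn had the lowest log2 fold change, Tek was among the lowest, Kdr lay near 0 and Esm1 had the highest. Capitals mark the ETS core, searched as GGAA on both strands so that its reverse complement TTCC counts too. The Emcn window is chr3:137340828-137341077 on the forward strand, the Tek window chr4:94739039-94739288 on the forward strand, the Kdr window chr5:75978456-75978705 on the reverse strand and the Esm1 window chr13:113209409-113209658 on the forward strand.
Emcn: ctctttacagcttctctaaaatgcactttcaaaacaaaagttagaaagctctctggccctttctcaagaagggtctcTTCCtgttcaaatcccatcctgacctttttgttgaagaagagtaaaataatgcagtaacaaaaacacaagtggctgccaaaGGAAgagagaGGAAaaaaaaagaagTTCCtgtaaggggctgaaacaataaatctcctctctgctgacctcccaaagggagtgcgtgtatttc
Tek: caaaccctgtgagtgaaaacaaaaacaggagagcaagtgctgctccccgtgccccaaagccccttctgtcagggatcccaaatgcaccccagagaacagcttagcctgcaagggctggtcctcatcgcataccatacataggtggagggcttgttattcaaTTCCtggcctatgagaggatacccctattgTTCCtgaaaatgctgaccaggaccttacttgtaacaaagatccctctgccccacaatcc
Kdr: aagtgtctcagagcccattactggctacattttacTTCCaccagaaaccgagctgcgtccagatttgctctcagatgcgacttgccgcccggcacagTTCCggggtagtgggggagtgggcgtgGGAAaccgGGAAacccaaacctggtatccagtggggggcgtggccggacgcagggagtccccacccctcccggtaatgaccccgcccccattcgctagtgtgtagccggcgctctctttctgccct
Esm1: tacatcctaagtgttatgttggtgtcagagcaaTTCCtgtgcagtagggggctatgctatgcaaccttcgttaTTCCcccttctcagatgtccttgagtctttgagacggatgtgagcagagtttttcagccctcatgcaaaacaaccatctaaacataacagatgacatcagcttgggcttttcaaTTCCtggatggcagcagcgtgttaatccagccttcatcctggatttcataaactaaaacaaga
The core occurred 4 times in the Emcn and Kdr windows, 3 times in that of Esm1 and 2 times in that of Tek. Among 32851 mouse promoter windows of this length, 93.4% held GGAA on either strand, and the median was 3 copies. Of 19 windows belonging to 15 endothelial genes, 17 (89.5%) held it, also with a median of 3. The letters AACAAT, bound by SOX factors, were in 4 of the 19 windows (21.1%) and in 9.42% of all windows. The homeodomain core TAATTA was in 2 of the 19 (10.5%) and in 4.84% of all windows, and both of these windows belong to Erg. These short matches describe the letters alone.

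Among the junction and surface proteins, all 12 genes had a log2 fold change below 0, with a median of -0.48, and 1 passed the test. Emcn (endomucin, ENSMUSG00000054690, chromosome 3, 137341067 to 137432185, forward strand) encodes a sialomucin of venous and capillary endothelium. Its level was 56.5, 46.6 and 35.4 CPM in WT and 16.6 CPM, 27.2 CPM and 26.6 CPM in Dlx2OE. All Dlx2OE samples lay below all WT samples, and the highest Dlx2OE value was that of replicate 2. Emcn fell by 0.97 on the log2 scale, with a standard error of 0.23, and its level decreased by 49.1% (edgeR quasi-likelihood test, Benjamini-Hochberg adjusted p = 0.046). The call was lost when WT replicate 1 or 2 or Dlx2OE replicate 2 or 3 was left out, with a highest adjusted p of 0.16 (edgeR). In those fits 0.222% to 0.793% of all genes fell, against 3.46% with all samples. Without replicate 1 of both genotypes the log2 fold change was -0.61.

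Cldn5, the main claudin of endothelial tight junctions, had 18.7, 15.1 and 18.2 CPM in WT and 8.20, 11.5 and 12.7 CPM in Dlx2OE. Clec14a, a C-type lectin of the endothelial surface, had 25.1, 21.0 and 22.2 CPM in WT and 11.3, 18.4 and 13.7 CPM in Dlx2OE. Ecscr, a regulator of endothelial migration, had 13.3, 8.89 and 8.82 CPM in WT and 4.46, 6.97 and 6.46 CPM in Dlx2OE. For all of these genes the genotypes did not overlap, yet none passed the edgeR quasi-likelihood test after Benjamini-Hochberg adjustment. The log2 fold changes were -0.68 for Cldn5 (adjusted p = 0.070), -0.65 for Clec14a (adjusted p = 0.077) and -0.79 for Ecscr (adjusted p = 0.089). With the DESeq2 Wald test, the tool of the study, all 3 passed. DESeq2 called 6 endothelial genes lower, against 7.21% of all genes, and Esm1 higher, against 5.54%. With no filter on low counts edgeR called 5 lower (3.51% of the 33556 genes then tested) and Esm1 higher (2.58%), and with library size alone Ramp2 lower (2.81%) and Esm1 higher (3.25%).

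Pecam1 (CD31), the adhesion molecule most used to stain vessels, had 94.2, 59.2 and 63.2 CPM in WT and 45.3, 63.1 and 50.0 CPM in Dlx2OE. Cdh5, vascular endothelial cadherin, had 107, 75.6 and 112 CPM in WT and 62.1, 90.2 and 84.7 CPM in Dlx2OE. Both genes overlapped between genotypes, since WT replicate 2 lay within the Dlx2OE range. Neither passed the edgeR quasi-likelihood test, at a log2 fold change of -0.45 for Pecam1 (Benjamini-Hochberg adjusted p = 0.18) and -0.31 for Cdh5 (adjusted p = 0.29). Per kilobase of exon, Cdh5 was the most abundant endothelial gene in WT, at 23.4 CPM per kb, followed by Plvap at 19.5 CPM per kb, Aplnr at 15.8 CPM per kb, Cldn5 at 12.2 CPM per kb and Pecam1 at 11.6 CPM per kb. The remaining surface genes overlapped as well. Their log2 fold changes were -0.63 for Icam2 (an adhesion ligand of leukocytes), -0.51 for Plvap (the diaphragm protein of fenestrae), -0.41 for Mmrn2 (a matrix ligand of Clec14a), -0.35 for Esam and -0.35 for Cd34. Cd93, another lectin-like receptor that binds Mmrn2, had -0.11.

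The 3 VEGF receptors had a median log2 fold change of -0.12. Kdr (VEGFR2), the principal signalling receptor for VEGF-A, had 76.6, 41.8 and 62.0 CPM in WT and 41.1, 75.5 and 58.5 CPM in Dlx2OE. The ranges covered each other almost entirely. The log2 fold change was -0.04 with a 95% interval from -0.65 to 0.57 (edgeR), so a change of either sign could not be detected at this spread, and the sign turned when libraries were scaled by size alone. Flt1 (VEGFR1), which binds VEGF-A with little signalling, had -0.12 and Flt4 (VEGFR3), the receptor for VEGF-C, had -0.20, and neither passed the test.

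In the angiopoietin-Tie axis the median log2 fold change was -0.71. Tek (Tie2), the receptor for angiopoietins, had 43.0, 23.2 and 26.3 CPM in WT and 12.5, 23.3 and 18.6 CPM in Dlx2OE. Dlx2OE replicate 2 matched WT replicate 2, so the genotypes overlapped by a small margin. The log2 fold change of Tek was -0.77 with a standard error of 0.29 (edgeR quasi-likelihood test, Benjamini-Hochberg adjusted p = 0.13), and without replicate 1 of both genotypes it was -0.25. Angpt2, the angiopoietin that endothelial cells release during remodelling, had 5.36, 5.21 and 5.32 CPM in WT and 2.60, 2.48 and 4.62 CPM in Dlx2OE. Its WT samples lay close together and all Dlx2OE samples lay below them. Its difference of -0.71 on the log2 scale did not pass the edgeR quasi-likelihood test (Benjamini-Hochberg adjusted p = 0.14). Tie1, the partner receptor of Tek, had a log2 fold change of -0.29. Of the endothelial TGF-beta and BMP receptors, Acvrl1 (ALK1) had -0.54 and its co-receptor Eng (endoglin) had -0.42, both with overlap between genotypes.

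Among peptide and lipid receptors, Ramp2 had the smallest p of all 37 endothelial genes. Ramp2 (ENSMUSG00000001240, chromosome 11, 101246028 to 101259546, forward strand) encodes the accessory protein that turns Calcrl into the adrenomedullin receptor. Its level was 23.3, 24.2 and 25.0 CPM in WT and 12.8, 17.0 and 14.3 CPM in Dlx2OE. The WT samples were almost equal, and each Dlx2OE sample lay well below them. Ramp2 fell by 0.72 on the log2 scale, with a standard error of 0.14 (edgeR quasi-likelihood test, Benjamini-Hochberg adjusted p = 0.030). Without replicate 1 of both genotypes it still fell, by 0.66, and was then the only endothelial gene with an adjusted p under 0.05. Of the exonic bases of Ramp2, 33.4% are shared with Vps25, a sorting complex gene that had 5 to 19 counts per sample, and reads in shared exons are not assigned by union counting. The call was kept in 2 of the 6 fits that each left out 1 sample. In the fits that lost it, 0.222% to 0.793% of all genes fell, against 3.46% with all samples.

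Calcrl itself had a log2 fold change of -0.35 with overlap between genotypes. S1pr1, the receptor for sphingosine-1-phosphate that steadies vessel junctions, had 22.0, 23.4 and 20.8 CPM in WT and 17.8, 16.3 and 14.9 CPM in Dlx2OE. The genotypes did not overlap, and here the lowest sample was Dlx2OE replicate 3, not replicate 1. The log2 fold change was -0.44 (edgeR quasi-likelihood test, Benjamini-Hochberg adjusted p = 0.075), and it stayed at -0.51 without replicate 1 of both genotypes. The apelin receptor Aplnr had -0.36, while its ligand Apln, made by sprouting tip cells, lay at -0.0044 with a 95% interval from -0.39 to 0.38 (edgeR).

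The endothelial transcription factors had a median log2 fold change of -0.06, with 4 of 6 genes below 0. None passed the edgeR or the DESeq2 test after adjustment, and 1, Sox18, had an unadjusted p under 0.05 (edgeR). The signs of Erg, Ets1, Sox7 and Sox17 turned when 1 sample was left out. The ETS factors Fli1 and Erg had -0.39 and -0.10. Ets1, which other tissues also express, had 0.12, with 68.7, 47.8 and 64.6 CPM in WT and 66.5, 65.0 and 65.3 CPM in Dlx2OE. Of the SOXF factors, which act in arterial and lymphatic specification, Sox7 had -0.02 and Sox17 had -0.20.

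Sox18 (ENSMUSG00000046470, chromosome 2, 181669836 to 181671640, reverse strand), the SOXF factor that acts upstream of Prox1 in lymphatic specification, had 16.9, 12.5 and 17.7 CPM in WT. In Dlx2OE it had 64.0, 18.9 and 19.4 CPM. Replicates 2 and 3 lay just above the highest WT sample, and replicate 1 stood far above all others. Sox18 had a log2 fold change of 1.12 with a standard error of 0.46, which did not pass the edgeR quasi-likelihood test (Benjamini-Hochberg adjusted p = 0.15). Without Dlx2OE replicate 1 the log2 fold change was at its lowest among the fits that left out 1 sample, at 0.28. Dlx2OE replicate 1 was the sample with the lowest level of most other endothelial genes. It also had the highest summed level of 9 surface epithelium genes, at 1713 CPM against 562 and 550.1 CPM in Dlx2OE replicates 2 and 3 and 723 CPM to 1281 CPM in WT. The basal keratin Krt5 was at 538 CPM in that sample, against 42.7 to 147 CPM in the others. Krt14, Trp63 and Esrp1 were also above all WT samples there. Krt8 (26.3 CPM), Krt18 (27.4 CPM) and Cldn6 (59.2 CPM) were below all WT samples, and Epcam and Cdh1 lay within the WT range. By the mean log2 level of the list, that sample stood 0.22 above the WT mean, less than WT replicate 2 at 0.41. The part of epithelium in the Sox18 value was not tested.

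The last group held secreted, enzymatic and vessel-type genes. Esm1 (endocan, ENSMUSG00000042379, chromosome 13, 113209659 to 113218098, forward strand), a proteoglycan that marks VEGF-stimulated tip cells, was a low gene, with 15, 10 and 23 counts in WT and 51, 39 and 53 counts in Dlx2OE. In WT this came to 0.513, 0.332 and 0.738 CPM, and in Dlx2OE to 1.72, 1.24 and 1.96 CPM. All Dlx2OE samples were above all WT samples. Esm1 rose 3.08-fold, a log2 fold change of 1.62 with a standard error of 0.37 (edgeR quasi-likelihood test, Benjamini-Hochberg adjusted p = 0.043). At 0.25 CPM per kb in WT it was the lowest of the 37 genes per length of exon. Its log2 fold change stayed between 1.37 and 1.94 when each sample was left out in turn, and 2 of these 6 fits kept the call. In the fits that lost it, 0.216% to 0.966% of all genes rose, against 2.99% with all samples.

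Vwf, the adhesion protein stored in endothelial granules, had 29.3, 21.8 and 43.2 CPM in WT and 8.98, 27.8 and 28.8 CPM in Dlx2OE. Only Dlx2OE replicate 1 lay below the WT range, and the log2 fold change of -0.52 did not pass the edgeR quasi-likelihood test (Benjamini-Hochberg adjusted p = 0.43). Egfl7, a secreted matrix protein, had -0.52 and Nos3, endothelial nitric oxide synthase, had -0.20. Nos3 shares 32.3% of its exonic bases with other genes, Sox17 16.9% and Egfl7 11.2%. The lymphatic and macrophage receptor Lyve1 had 24, 19 and 29 counts in WT and 38, 4 and 9 counts in Dlx2OE, and Gpihbp1, the capillary anchor of lipoprotein lipase, had a log2 fold change of -0.01. The 95% interval of Lyve1 reached from -2.04 to 1.15 and that of Gpihbp1 from -1.19 to 1.16 (edgeR), too wide to show a shift of the size seen in the other genes.

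**Figure D2:**
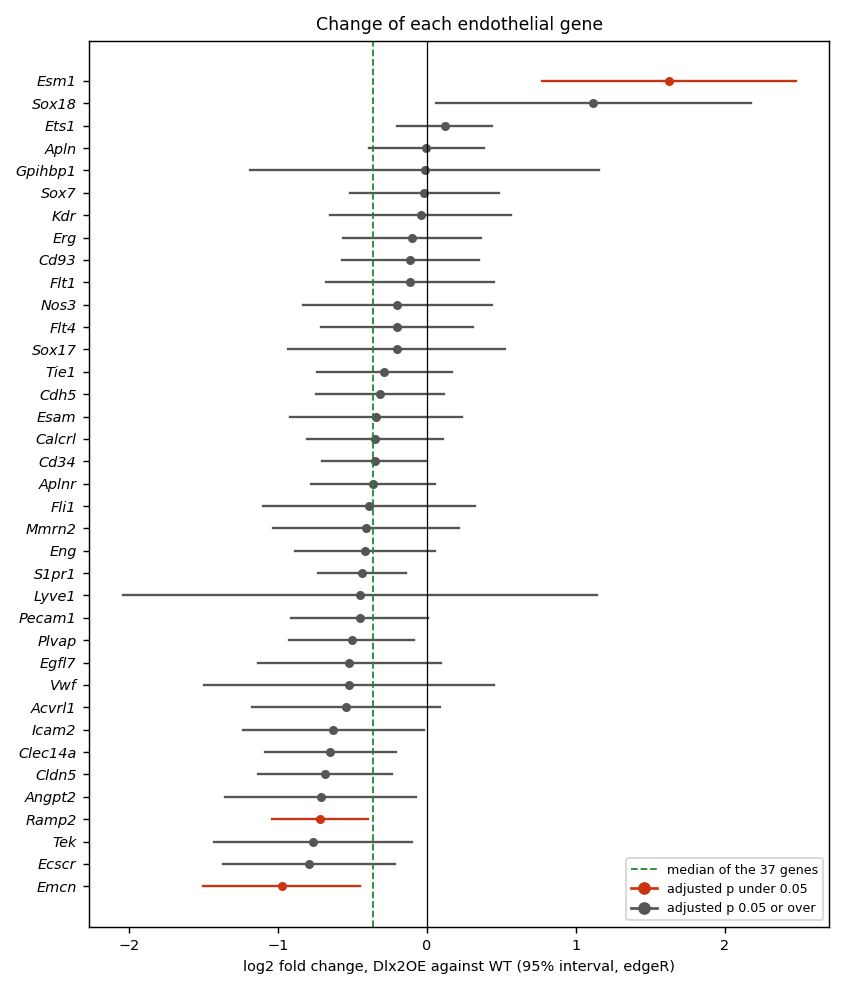
Points are log2 fold changes of Dlx2OE against WT from edgeR for the 37 endothelial genes, lines are 95% intervals, red marks an adjusted p under 0.05 and the dashed green line is the median of the genes. The intervals of 32 genes hold the median of -0.36, and those of 24 genes hold 0.

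The 37 genes were then set against a single shared shift. The interquartile range of their log2 fold changes was 0.41, from -0.52 to -0.12, beside 0.57 over all genes. The 95% interval held the shared median of -0.36 for 32 genes. It did not for Emcn and Ramp2, which lay lower, nor for Ets1, Sox18 and Esm1, which lay higher. The intervals of 24 genes also held 0, so that for many genes neither a shared fall nor no change was outside the measurement. The standard deviation of the 37 log2 fold changes was 0.48, and the median standard error of a single gene was 0.23. Without Esm1 and Sox18, which had the highest log2 fold changes, the standard deviation of the other 35 was 0.26. The median came from these same genes and samples, and each interval and standard error includes spread between samples that the genes share. The interval counts and standard deviations therefore cannot decide between a uniform fall and a change gene by gene. Between genotypes, 7 genes did not overlap with lower values in Dlx2OE (Emcn, Cldn5, Ramp2, Angpt2, S1pr1, Ecscr and Clec14a) beside 17.3% of all genes. Sox18 and Esm1 did not overlap with higher values (16.7% of all genes).

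Each gene was also read relative to 8 core endothelial genes, Pecam1, Cdh5, Tie1, Esam, Emcn, Clec14a, Ecscr and Mmrn2. For this, libraries were rescaled to the geometric mean of these genes. This scaling moved the median log2 fold change of all genes to 0.55, and 86.5% of all genes were then above 0. Of the 29 endothelial genes outside the core, 21 were above 0 and 8 below, with a median of 0.20. Under TMM scaling the core genes lay between -0.97 and -0.29, with a median of -0.43 beside -0.36 for all endothelial genes. Emcn, the lowest, had itself passed the test under TMM scaling, and it is not among the 29. A core that fell more than the endothelial median raises the values of the 29. Their signs and counts thus depend on the choice of core and cannot decide whether they fell. Esm1 and Sox18 rose relative to the core, 2 of 29 genes, where 11.1% of all genes rose, and 0 genes fell, where 0.56% of all genes fell. Samples did not overlap with higher values for 7 of the 29 (41.8% of all genes) and with lower values for 0 (1.47%). At an unadjusted p under 0.05 (edgeR), 3 of the 29 were higher (35.5% of all genes) and 0 lower (1.57%). The DESeq2 test was not run with this scaling.

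Relative to the core, Esm1 had 0.356, 0.321 and 0.628 CPM in WT and 2.72, 1.21 and 2.23 CPM in Dlx2OE. All Dlx2OE samples were higher, and the log2 fold change was 2.21 with a standard error of 0.47 (edgeR quasi-likelihood test, Benjamini-Hochberg adjusted p = 0.0070). This call was kept when any 1 sample was left out. On the same scale Sox18 had 11.7, 12.1 and 15.1 CPM in WT and 101 CPM, 18.3 CPM and 22.1 CPM in Dlx2OE. Its log2 fold change was 1.86 (edgeR quasi-likelihood test, Benjamini-Hochberg adjusted p = 0.018). Without Dlx2OE replicate 1 it was 0.64 and no longer passed the test. Ets1 had a core-scaled log2 fold change of 0.70 (edgeR quasi-likelihood test, Benjamini-Hochberg adjusted p = 0.093). Kdr, at 53.1, 40.5 and 52.8 CPM in WT and 64.9, 73.4 and 66.6 CPM in Dlx2OE on this scale, did not overlap between genotypes and had a log2 fold change of 0.49, close to the 0.55 of all genes (adjusted p = 0.20, edgeR).

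**Figure D3:**
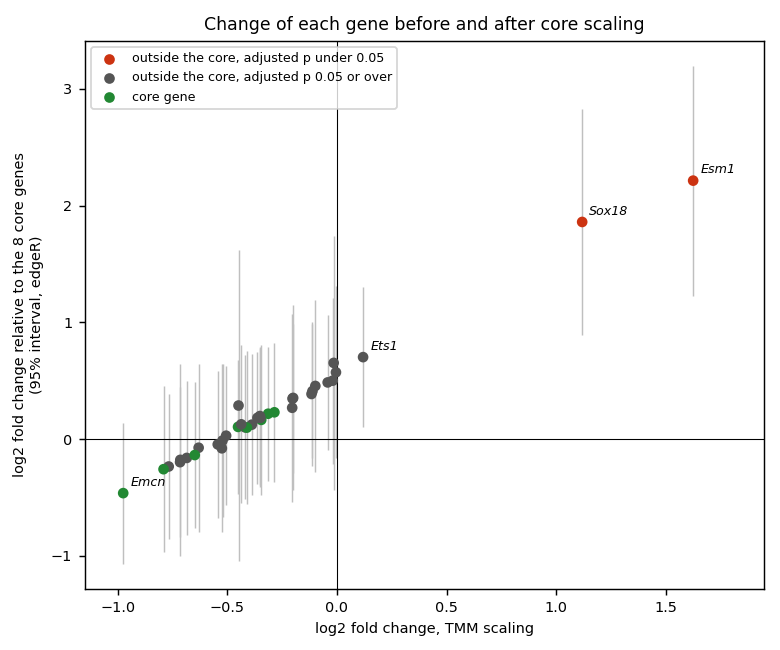
Each point is an endothelial gene, with the log2 fold change under TMM scaling on the horizontal axis and that relative to the 8 core genes, with its 95% interval from edgeR, on the vertical axis. Esm1 (2.21) and Sox18 (1.86) lie apart at the upper right, and core genes are green.

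Genes of other endothelial lists were read in the same way. Of 21 further pan-endothelial genes tested, 19 were below 0 and 2 above, with a median log2 fold change of -0.33. None passed the edgeR test after adjustment (3.46% of all genes fell). By edgeR 3 were lower at an unadjusted p under 0.05 (15.4% of all genes), and DESeq2 called 2 lower (7.21%). Robo4, the endothelial Roundabout receptor, had -0.07. Without replicate 1 of both genotypes the median of these 21 genes was -0.11. Of 10 arterial genes, 8 were above 0, with a median of 0.18. The 2 below 0 were Gja5 (-0.44) and Gja4 (-0.38). This list holds genes that other cells also express, and the part of those cells was not tested. None passed the edgeR test after adjustment. At an unadjusted p under 0.05 (edgeR) 1 of the 10 was higher, beside 14.1% of all genes. This was Notch1, a receptor that many other cells also express and that was chosen here after its values were seen. Notch1 had a log2 fold change of 0.87 with no overlap between genotypes (adjusted p = 0.054 by edgeR and 0.0014 by DESeq2). Over all genes, DESeq2 called 5.54% higher, and 16.7% did not overlap with higher values. Of 8 venous and lymphatic genes, 4 were above 0 and 1 fell, which was Prox1, the master regulator of lymphatic identity that neurons and other cells also express. Prox1, at 17.2 ± 3.34 CPM in the WT samples against 8.10 ± 2.10 with the cassette (SD over 3 samples), fell by 1.09 on the log2 scale (edgeR quasi-likelihood test, Benjamini-Hochberg adjusted p = 0.040). Of 5 brain barrier genes tested, 4 were above 0 and Foxq1 fell, with a log2 fold change of -1.91 (edgeR, adjusted p = 0.045). Foxq1 shares 66.1% of its exonic bases with a neighbouring transcript.

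Signals that act on endothelium were read from a list of 18 genes. These were ligands, a co-receptor (Nrp1), a sphingosine kinase (Sphk1) and a sphingosine-1-phosphate transporter (Spns2). Of them 15 were tested, with 9 below 0 and 6 above and a median log2 fold change of -0.33. Angpt1, the activating ligand of Tek that mesenchyme and pericytes make, had 74.5, 76.5 and 59.7 CPM in WT and 45.3, 39.5 and 33.3 CPM in Dlx2OE. Each Dlx2OE sample was lower than each WT sample. Angpt1 fell by 0.83 on the log2 scale, with a standard error of 0.15 (edgeR quasi-likelihood test, Benjamini-Hochberg adjusted p = 0.022). It was the one signal that passed by edgeR, where 3.46% of all genes fell. DESeq2 called 4 signals lower, Angpt1, Vegfc, Pgf and Cxcl12, beside 7.21% of all genes. Vegfa, the main vessel growth factor, was at 97.5 ± 6.48 CPM in the Dlx2OE samples against 81.6 ± 6.43 in WT (SD over 3 samples), a difference of 0.26 on the log2 scale (adjusted p = 0.14, edgeR). Vegfc, the lymphatic growth factor, had -0.60 (adjusted p = 0.068, edgeR), and Adm, adrenomedullin, the ligand of the Calcrl and Ramp2 receptor, had -0.50 (adjusted p = 0.50, edgeR). Of 11 genes of the hypoxia response, 8 were below 0 and 3 above, with a median of -0.14. Slc2a3 (log2 fold change 1.62, adjusted p = 0.016) and Pfkfb3 (0.62, adjusted p = 0.033) rose by the edgeR quasi-likelihood test, where 2.99% of all genes rose. At an unadjusted p under 0.05 (edgeR), 2 were higher (14.1% of all genes) and 3 lower (15.4%). The 3 lower were Ndrg1 (-0.55), Bnip3 (-0.57) and Ankrd37 (-0.66). Slc2a3, a glucose transporter that neurons also express at a high level, was at 195, 115 and 93.2 CPM in Dlx2OE replicates 1 to 3. The summed level of 9 neuron genes in the same samples was 200.2, 690.6 and 1553 CPM. The part of neurons in the Slc2a3 values was not tested.

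Markers of several other cells also had lower values in Dlx2OE. Over all genes, edgeR called 3.46% lower and 2.99% higher, and DESeq2 called 7.21% lower and 5.54% higher. At an unadjusted p under 0.05 (edgeR) the shares were 15.4% lower and 14.1% higher. Of 11 pericyte and smooth muscle genes tested, 8 were below 0, with a median log2 fold change of -0.76, and Rgs5 fell by 1.20 (edgeR, adjusted p = 0.018). Of 12 macrophage genes, 11 were below 0 and C1qa, C1qb and C1qc fell, with a median of -0.65. Of 13 erythroid genes, 12 were below 0 and Hba-a1, Hba-a2 and Alas2 fell, also with a median of -0.65, whereas 8 platelet genes had a median of -0.09 and none passed by edgeR or DESeq2, with 1 at an unadjusted p under 0.05 (edgeR). Summed levels were 109 CPM to 123 CPM in WT and 71.5 CPM to 79.2 CPM in Dlx2OE for macrophages, 3332 to 4449 CPM and 2011 to 2603 CPM for erythroid cells, 30.6 to 42.0 CPM and 24.3 to 33.9 CPM for platelets, and 384 CPM to 465 CPM and 356 CPM to 468 CPM for pericytes and smooth muscle. Of 12 neural crest mesenchyme genes, 10 were above 0 and Twist1, Twist2 and Alx4 rose, with summed levels of 3594 to 3766 CPM in WT and 4041 to 4400 CPM in Dlx2OE. All 9 neuron genes were above 0. None passed the edgeR test after adjustment, 4 had an unadjusted p under 0.05, and DESeq2 called 1, Pou4f1, a sensory neuron factor. Their summed level ranged from 81.6 to 345 CPM in WT and from 200.2 to 1553 CPM in Dlx2OE. Of 9 surface epithelium genes, 6 were below 0 and Krt8 and Krt18 fell, with the highest sum in Dlx2OE replicate 1. Of the calls among the marker, signal and vessel-type lists, Hba-a2 and Krt8 were kept in all 6 fits that each left out 1 sample, and each of the others was kept in 1 to 4 of them. None of these marker genes was at 0 counts in any sample. DESeq2 called 3 pericyte and smooth muscle, 6 macrophage, 5 erythroid and 2 surface epithelium genes lower, and 5 neural crest mesenchyme genes higher. The part of these other cells in the endothelial values was not tested.

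**Figure D4:**
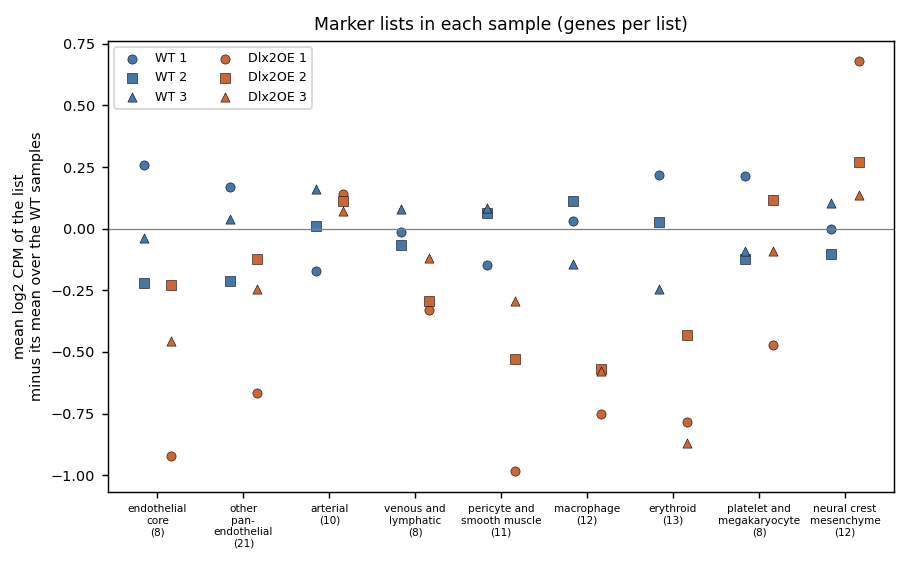
For each marker list (number of genes tested in brackets), points give each sample's mean log2 CPM minus the mean of the WT samples, with WT in blue and Dlx2OE in orange. The endothelial core of WT replicate 2 (-0.22) lies beside that of Dlx2OE replicate 2 (-0.23), the other pan-endothelial values overlap between genotypes, and all macrophage and erythroid values of Dlx2OE lie below those of WT.

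Gene length was also examined, because short genes had lower values in Dlx2OE across the whole transcriptome. Over all genes, Spearman's rho between the log2 fold change and exon length was 0.28, and over the 37 endothelial genes it was 0.083, a description across genes that are not independent of each other. The 5 endothelial genes under 2 kb had a median log2 fold change of -0.63, beside -0.24 for all genes of that length. The 14 of 2 kb to 4 kb had -0.38 beside -0.10, and the 18 of 4 kb and over had -0.33 beside 0.098. Endothelial genes thus had a lower median than all genes in each length class. After correction for length and GC content the median was -0.41, Emcn and Ramp2 still fell (2.47% of all genes), and the log2 fold change of Esm1 was 1.68 with an adjusted p of 0.0504 (edgeR), just outside the threshold (1.86% of all genes rose).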

How the data were processed

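RNA of E12.5 maxillary processes was sequenced from 3 WT and 3 Dlx2OE samples. The authors filtered the reads, mapped them to mm10 with STAR 2.7.3a, counted them per gene with htseq-count (HTSeq 0.12.4, union mode) and deposited raw counts. Tool versions come from the submitters' processing notes, and the annotation release and strand setting are not given in the sources used here. Without a known strand setting, reads of overlapping genes on opposite strands may not be told apart. Symbols and positions came from GENCODE M21 (GRCm38), where 53706 of the 53801 genes were found, and promoters from RefSeq (GRCm38.p6), which held 15 of the 37 genes.

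The test was edgeR's quasi-likelihood F test (edgeR 4.0.16, R 4.3.3) with genotype as the single term, after filterByExpr with a minimum count of 10 and TMM scaling, with Benjamini-Hochberg adjustment over 17514 genes and a threshold of 0.05. Log2 values used a prior count of 2. Standard errors were derived from the F statistic, and 95% intervals used the moderated degrees of freedom. Levels are CPM on TMM-scaled totals. A floor of 3 counts was 0.0955 to 0.111 CPM, for counting error only.

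All listed genes are named, with genes of other lists at an adjusted p under 0.05, and Vegfa, Vegfc, Angpt1, Adm, Robo4 and Dlx2. The listed genes and all other lists were chosen with earlier results of these data known. No test was made over a list, and no explanation was tested. Alternatives were the DESeq2 1.42.0 Wald test, other scalings and filters, a loess correction (span 0.5) for length and GC content, a replicate block, another core and leaving out samples. The same-numbered samples of the genotypes are not described as pairs. Scripts were tested on simulated data. Figures were drawn with matplotlib 3.10.9.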

Additional observations from a re-analysis of the deposited data

How the results depend on the processing

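The median log2 fold change of the endothelial genes was below 0 under all 16 alternatives tried, from -0.50 without WT replicate 2 to -0.10 without replicate 1 of both genotypes, the last chosen after the data were seen. Of the 37 genes, 23 had 1 sign under all 16, with 21 lower and 2 higher. Against 2 genes that fell and 1 that rose, 6 fell with the DESeq2 Wald test (Tek, Emcn, Cldn5, Ramp2, Ecscr and Clec14a, 7.21% of all genes), 5 with no filter on low counts (3.51% of all genes), 1 with library size alone (2.81%), 1 without replicate 1 of both genotypes (5.06%) and 0 with a log2 fold change below -1 required. Those that rose were 0 with the length and GC correction and 0 without replicate 1 of both genotypes. Leaving out 1 sample gave 0 to 3 that fell and 0 to 1 that rose. The 3 fell without WT replicate 3, where 7.14% of all genes fell and 4.36% rose. Both counts were 0 without WT replicate 1, WT replicate 2, Dlx2OE replicate 2 or Dlx2OE replicate 3, where 0.222% to 0.793% of all genes fell and 0.216% to 0.966% rose. The replicate numbers are not described as pairing the samples. Deviations of same-numbered samples correlated at -0.07, -0.21 and 0.07, and those of differently numbered samples at -0.20 to 0.34. With 3 samples per genotype these values cannot decide whether samples were paired. With a replicate block 1 gene fell (Ramp2; 3.16% of all genes), and with the block and the length and GC correction 0 fell (2.01%) and 0 rose (1.13%). The interquartile range narrowed to 0.28 with the correction and to 0.29 with the block added. Relative to the core, 1 gene rose (Esm1) with the block, with Pecam1, Cdh5 and Tie1 alone as core, or without replicate 1 of both genotypes, and 1 to 3 rose when 1 sample was left out. In the main fit with core scaling 11.1% of all genes rose. The shares for the other core-scaled fits are not given, so these counts cannot be set against all genes.

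Signs turned for genes with small or variable differences. With library size alone the log2 fold change was 0.032 for Kdr, 0.049 for Sox7, 0.059 for Apln and 0.064 for Gpihbp1. It was 0.0010 for Apln with at least 10 counts in every sample. With the length and GC correction it was 0.066 for Sox7, 0.087 for Apln and 0.11 for Gpihbp1, and with the block added 0.060, 0.094 and 0.086. Leaving out 1 sample gave -0.27 to 0.16 for Kdr, -0.36 to 0.027 for Nos3, -0.58 to 0.27 for Gpihbp1, -0.28 to 0.056 for Erg, -0.030 to 0.22 for Ets1, -0.14 to 0.14 for Sox7, -0.38 to 0.041 for Sox17, -0.082 to 0.079 for Apln, -0.30 to 0.096 for Flt1, -0.26 to 0.058 for Cd93 and -1.81 to 0.031 for Lyve1. Without replicate 1 of both genotypes it was 0.36 for Kdr, 0.16 for Flt1, 0.062 for Flt4, 0.034 for Esam, 0.12 for Fli1, 0.16 for Sox7, 0.14 for Nos3 and 0.17 for Cd93. The cause was not tested.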
